A study of Mus musculus with 27 samples.

Results

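The 9 genes described here encode the muscle acetylcholine receptor and the proteins that build and serve the synapse between a motor nerve and a muscle fibre. They are the receptor subunit genes Chrna1, Chrnb1, Chrnd, Chrne and Chrng, the kinase gene Musk, its activator Dok7, the receptor clustering gene Rapsn and the acetylcholinesterase gene Ache. They were chosen by name as known components of the junction, and each had 1 row among 55852 rows of the table of injured muscle and among 55677 rows of the table of control muscle. RNA of whole muscle was sequenced in 27 libraries from male mice of the C57BL/6J strain, 3 per group. The injured groups were WT and Gsdme KO mice 1, 4, 7 and 14 days (D1, D4, D7 and D14) after cardiotoxin (CTX), a snake venom peptide that lyses fibres and leaves stem cells to rebuild them, and the control group was uninjured WT muscle. KO mice lacked gasdermin E in all cells, as the study describes them, although a label calls the genotype a knockdown, and no uninjured KO muscle was analysed here. The deposited text calls the tissue thigh muscle and the control unloaded, whereas the study names the gastrocnemius and the contralateral leg. The age of these mice was not given in the sources used here.

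All values are TPM, a share of all transcripts scaled to a fixed total, which corrects for gene length, so that levels of different genes in a library can be set side by side. Control muscle and WT D1 muscle stand together in a table of their own, and tests were made only within a table. Gsdme was lower in every KO library than in every WT library of D1 (KO from 1.28 to 2.17 TPM, WT from 2.76 to 4.85 TPM). The same held for D4 (KO up to 1.64 TPM, WT from 2.63 TPM) and D7 (KO up to 1.37 TPM, WT from 1.80 TPM). The D14 libraries overlapped (KO from 1.27 to 1.96, WT from 1.46 to 2.26), so that Gsdme did not separate the labels there. All 13 mature myofibre markers were found in every library, summing to between 51333 and 244394 TPM. KO D4 replicate 2 stood apart from its group in regenerating myofibre and leukocyte markers and in several of the genes described here. The main D4 tests of the genes described here are given with and without it. No batch is labelled. The study describes a batch of injured and uninjured muscle at 24 h and another of both genotypes over time, so that for WT D1 muscle batch and group cannot be told apart.

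At the junction, nerve terminals release acetylcholine onto a dense patch of receptors in the fibre membrane. The nerve also releases agrin, which binds Lrp4 and so activates the kinase Musk, with Dok7 as its partner inside the fibre, and rapsyn then ties receptors into clusters. Each receptor is a ring of alpha, beta and delta subunits with either a gamma subunit, the fetal form, or an epsilon subunit, the adult form, and the exchange of gamma for epsilon in development changes how long the channel stays open. Fibres without nerve contact or activity, and fibres newly formed in regeneration, express receptor genes outside the synapse under control of myogenic E-box factors, whereas the epsilon gene is transcribed mainly by nuclei beneath the synapse through an N-box bound by ETS factors.

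The genes lie on several mouse chromosomes (build mm10, positions from the GENCODE annotation). Chrnd (chr1:87190607-87200070) and Chrng (chr1:87204657-87212694) are neighbours on the plus strand, 4586 bases apart. Chrna1 is at chr2:73563215-73580338 on the minus strand, Chrnb1 at chr11:69784036-69795943 and Chrne at chr11:70614883-70619216, both on the minus strand. Rapsn is at chr2:91035620-91045729, Musk at chr4:58285960-58374303, Dok7 at chr5:35056766-35087839 and Ache at chr5:137287519-137294466, all on the plus strand. In GENCODE, Chrne overlaps 1 gene on the opposite strand, 4930544D05Rik, Rapsn overlaps 1, Gm13778, and Ache overlaps 2, Gm42456 on the opposite strand and Mir8116. Whether the counting used strand is not given in the sources used here, so that reads over these overlaps cannot be assigned with certainty.

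Promoter sequences of 7 of the 9 genes were found in RefSeq (GRCm38.p6), without Chrnd and Rapsn. The 250 bases before the RefSeq start are shown for the fetal gamma gene, the adult epsilon gene and the alpha gene, because these carry the exchange of subunits and the largest response described below. Capitals mark E-boxes (CANNTG) and the N-box (CCGGAA), searched on both strands.
Chrng promoter, chr1:87205561-87205810, plus strand: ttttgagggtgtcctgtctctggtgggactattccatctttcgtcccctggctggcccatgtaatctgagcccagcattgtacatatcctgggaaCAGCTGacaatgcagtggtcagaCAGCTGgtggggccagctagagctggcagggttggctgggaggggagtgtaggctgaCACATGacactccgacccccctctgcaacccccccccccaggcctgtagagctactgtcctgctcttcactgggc
Chrne promoter, chr11:70619195-70619444, minus strand: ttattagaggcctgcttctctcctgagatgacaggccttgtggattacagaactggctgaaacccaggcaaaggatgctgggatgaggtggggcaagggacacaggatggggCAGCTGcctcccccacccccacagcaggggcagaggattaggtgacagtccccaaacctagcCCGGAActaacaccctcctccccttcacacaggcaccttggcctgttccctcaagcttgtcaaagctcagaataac
Chrna1 promoter, chr2:73580339-73580588, minus strand: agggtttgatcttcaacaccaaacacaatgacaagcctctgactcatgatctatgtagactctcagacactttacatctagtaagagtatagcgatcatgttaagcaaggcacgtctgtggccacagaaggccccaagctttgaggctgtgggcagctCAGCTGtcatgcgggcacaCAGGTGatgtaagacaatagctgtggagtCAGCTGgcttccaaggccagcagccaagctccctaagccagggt
The Chrng window held 3 E-boxes, which begin 155, 132 and 75 bases before the start, and the first 2 read CAGCTG. The Chrna1 window also held 3, at 92, 73 and 44 bases. The Chrne window held 1 E-box, at 138 bases, and 1 N-box, at 76 bases, and was the only one of the 7 genes with these N-box letters. Chrnb1 and Musk had 3 E-boxes each, and Ache and the first of 2 Dok7 entries had 1. Of 32851 mouse promoter windows of this length, 66.2% held at least 1 E-box, 12.2% at least 3, and 3952 held at least 1 N-box, so that such letters are common. The Chrng start used by RefSeq lies inside the GENCODE gene.

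The receptor genes covered a wide range of levels over the 8 injured groups. The highest group mean was 386 times the lowest for Chrng, 27.3 times for Chrna1 and 20.4 times for Chrnd, against 6.01 times for Chrne and 3.85 times for Chrnb1. The clustering genes and the esterase moved less, at 2.99 times for Musk, 2.50 for Dok7, 2.82 for Rapsn and 3.42 for Ache. WT D4 muscle had the highest mean of 7 of the 9 genes, while Chrne was highest in KO D7 and Musk in WT D1 muscle. Libraries of neighbouring groups in these orders overlapped for most genes. For Chrng, the WT D4 libraries lay above all KO D4 libraries and all later neighbours overlapped, and for Musk every pair of neighbours overlapped.

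**Figure D1:**
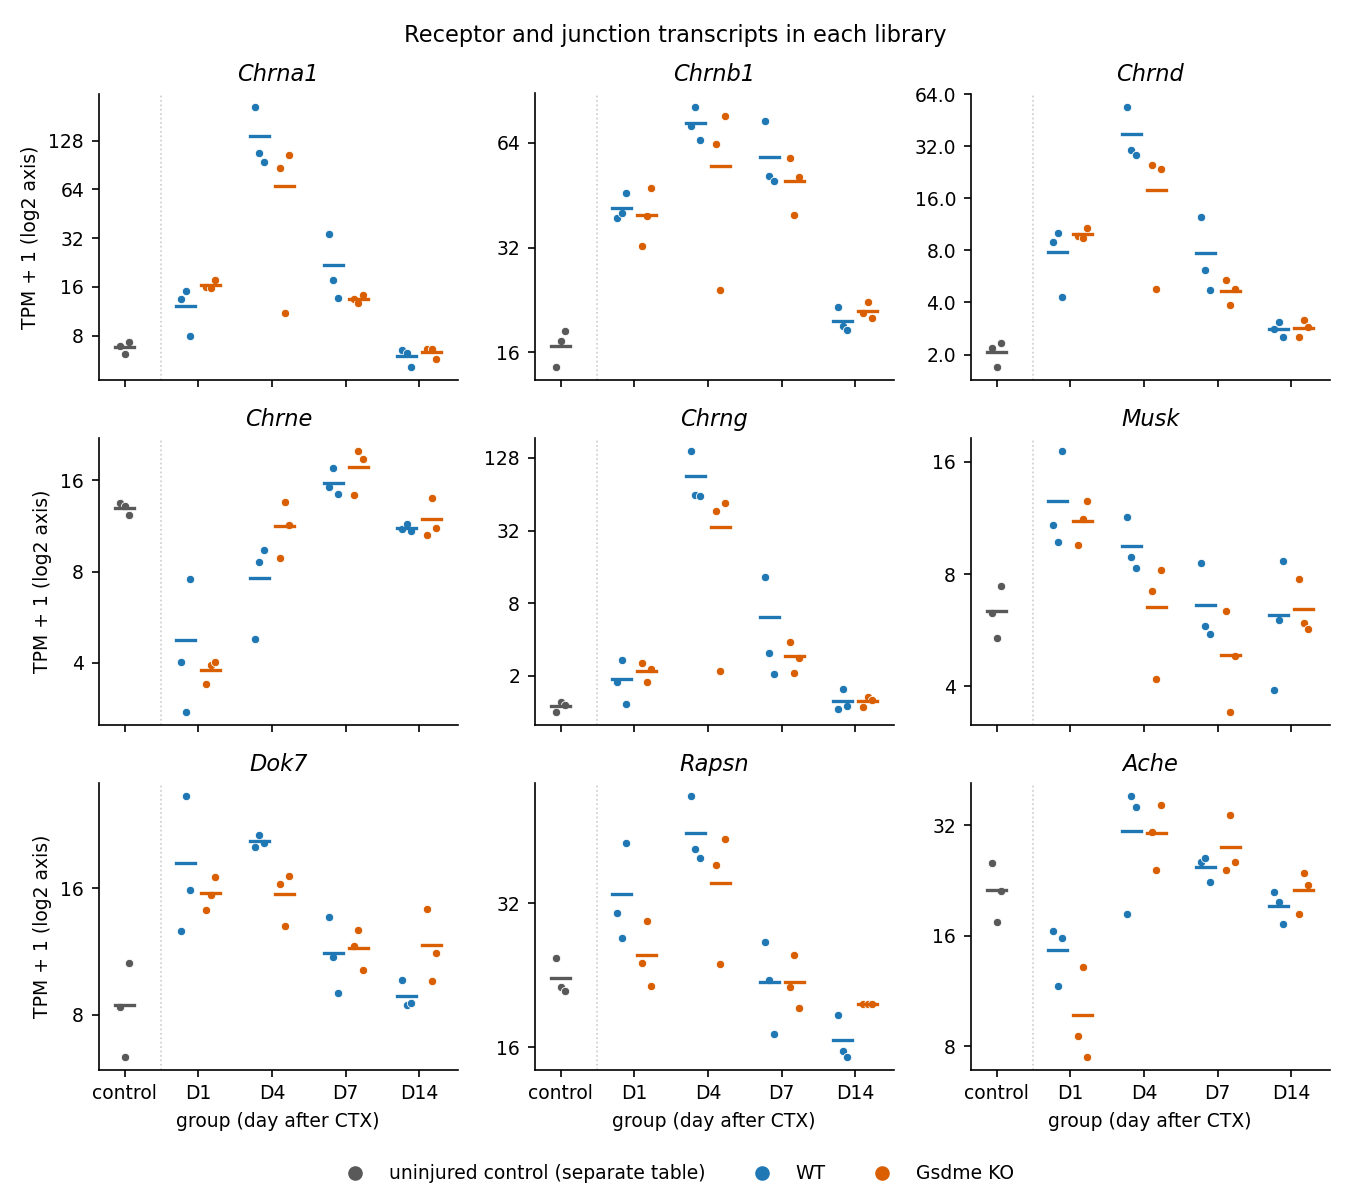
Level of each gene in every library, as TPM + 1 on a log2 axis, by group. Points are single libraries and lines are group means of 3. Chrng, Chrna1 and Chrnd peaked on D4, with 1 KO D4 library far below the other 2, whereas Chrne was lowest on D1 and highest on D7.

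Chrng, the fetal gamma subunit, was nearly undetected in uninjured muscle, where the 3 control libraries were listed at 0, 0.21 and 0.15 TPM. On D1 it was 0.78, 1.70 and 0.16 TPM in WT and 1.53, 0.79 and 1.27 TPM in KO libraries. On D4 it reached 144, 61.61 and 60.65 TPM in WT muscle. In KO muscle of that day it was 45.19, 1.18 and 53.24 TPM, so that 2 libraries were high and replicate 2 stayed at the D1 level. Chrng was down to 12.25, 2.08 and 1.06 TPM in WT and 2.81, 1.09 and 1.83 TPM in KO muscle on D7. By D14 all 6 libraries were between 0.05 and 0.54 TPM.

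Chrne, the adult epsilon subunit, ran another course. Control libraries had 12.52, 12.22 and 11.27 TPM. WT D1 libraries had 3.01, 1.75 and 6.54 TPM and KO D1 libraries 2.41, 2.92 and 3.01 TPM, all below control values in the other table. On D4 the values were 3.79, 7.63 and 8.40 TPM in WT and 7.86, 12.59 and 10.43 TPM in KO muscle. The D7 libraries were the highest of the course, at 14.19, 16.52 and 13.42 TPM in WT and 13.35, 18.96 and 17.81 TPM in KO muscle. On D14 Chrne was from 9.89 to 10.51 TPM in WT libraries, below all 3 control values of the other table. It was 9.57, 13.03 and 10.14 TPM in KO libraries, of which only replicate 2 lay above the lowest control value.

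Set against each other within each library, both transcripts had a balance that shifted between days. Chrng made up 0%, 1.69% and 1.31% of the summed Chrng and Chrne TPM in control libraries. On D1 the share was 24.1% ± 23.6 in WT muscle (SD, n = 3; from 2.39% to 49.3%) and 29.9% ± 8.77 in KO muscle, at summed levels from 3.45 to 6.70 TPM over both genotypes. On D4 the share was 97.4%, 89.0% and 87.8% in WT libraries. KO D4 libraries had 85.2%, 8.57% and 83.6%, so that replicate 2 was within the range of D7 libraries. On D7 the share was 46.3%, 11.2% and 7.32% in WT and 17.4%, 5.44% and 9.32% in KO libraries, which overlapped. On D14 it was from 0.494% to 4.89% in WT and from 1.03% to 2.54% in KO muscle. The summed level of both transcripts was 95.4 ± 45.5 TPM in WT D4 and 19.8 ± 6.08 TPM in WT D7 muscle, so that the lower gamma share on D7 came with fewer transcripts in all. These shares are descriptions and were not tested.

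**Figure D2:**
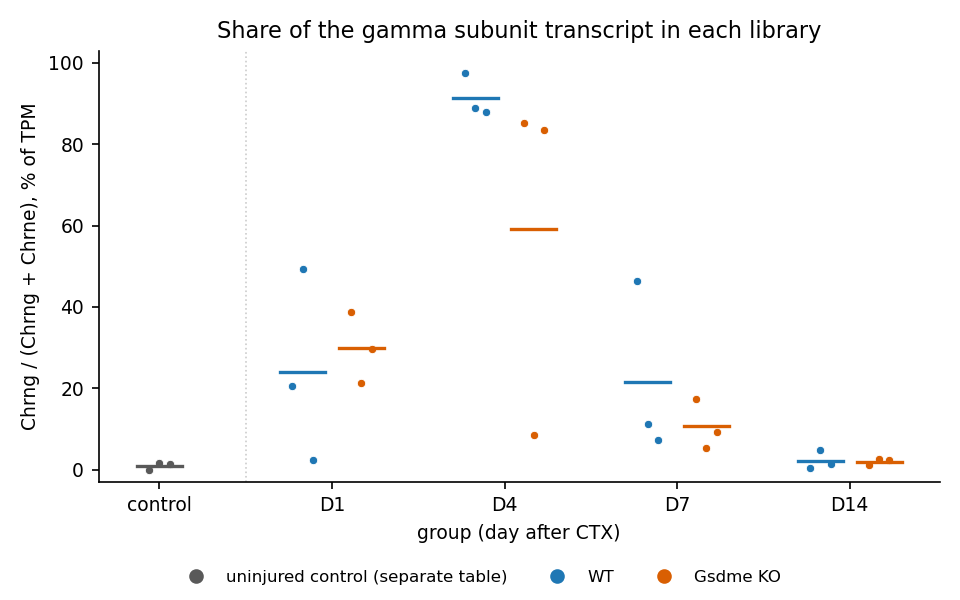
Chrng as a percentage of the summed TPM of Chrng and Chrne in every library, by group. Points are single libraries and lines are group means of 3. WT D4 libraries lay between 87.8% and 97.4%, and KO D4 replicate 2 at 8.57% was far below the other KO D4 libraries.

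Chrna1, which encodes the subunit that carries the acetylcholine binding face, was 5.91, 5.19 and 6.26 TPM in control muscle. It was 207, 106 and 93.21 TPM in WT D4 libraries and 86.10, 10.01 and 102.69 TPM in KO D4 libraries. Before and after this peak the values were far lower, at 6.90 to 16.56 TPM on D1, 11.77 to 32.90 TPM on D7 and 4.10 to 5.62 TPM on D14 over both genotypes. Chrnd, the delta subunit, had the same shape, with 53.20, 29.60 and 27.34 TPM in WT D4 and 23.75, 3.79 and 22.72 TPM in KO D4 libraries. Its D1 libraries were between 3.32 and 9.76 TPM and its D14 libraries between 1.51 and 2.18 TPM. Chrnb1, the beta subunit, was less peaked, in WT muscle at 40.7 ± 3.82 TPM (SD, n = 3) after 1 day and 71.9 ± 8.09 TPM after 4 days, then 57.5 ± 13.6 TPM on D7 and 18.7 ± 1.63 TPM by D14. In KO muscle it was 38.7 ± 7.61, 53.9 ± 27.4 and 48.6 ± 9.12 TPM on D1, D4 and D7, and 19.74, 21.25 and 19.14 TPM on D14.

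The subunit transcripts were therefore not in a fixed ratio. Chrna1 was 0.32 to 0.44 times Chrnb1 in control libraries and 0.15 to 0.48 times on D1. On D4 it was 2.92, 1.32 and 1.45 times Chrnb1 in WT and 1.37, 0.43 and 1.36 times in KO libraries. By D14 this ratio was between 0.23 and 0.29 in all 6 libraries, and that of Chrne was between 0.48 and 0.61, against 0.65 to 0.93 in control muscle. Across the 24 injured libraries, on log2(TPM + 1), Pearson's r with Chrng was 0.98 for Chrna1, 0.92 for Chrnd, 0.78 for Chrnb1 and 0.77 for Rapsn, and -0.07 for Chrne. Chrne correlated with Ache at 0.73 and with Musk at -0.73. These correlations describe libraries that share day and tissue composition, and no test was made of them.

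Musk, the receptor kinase of the agrin pathway, had its highest means on D1, at 9.83, 8.75 and 16.09 TPM in WT and 8.55, 10.25 and 11.55 TPM in KO libraries, against 5.29, 4.39 and 6.41 TPM in control muscle. It was 10.39, 7.87 and 7.31 TPM in WT D4 and 6.21, 3.18 and 7.22 TPM in KO D4 libraries, and from 2.41 to 7.67 TPM in later libraries. Dok7, the adaptor that activates Musk from inside the fibre, was steady among WT D4 libraries at 19.10, 20.40 and 19.53 TPM, all above the KO D4 libraries at 15.39, 11.99 and 16.14 TPM. Dok7 was 7.35, 5.36 and 9.65 TPM in control muscle, and 11.65, 25.49 and 14.85 TPM in WT D1 muscle. Rapsn, whose product clusters receptors, was 52.63, 40.49 and 38.75 TPM in WT D4 and 37.46, 22.86 and 42.57 TPM in KO D4 libraries. On D14 the 3 libraries of KO mice were between 18.67 and 18.75 TPM and the WT libraries between 14.29 and 17.73 TPM. All 6 were below the control libraries of the other table, which had 20.01 to 23.62 TPM.

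Ache, the enzyme that clears acetylcholine from the synaptic cleft, was 24.17, 16.49 and 20.17 TPM in control muscle. It was lower in D1 libraries, at 15.51, 10.64 and 14.76 TPM in WT and 7.54, 12.16 and 6.49 TPM in KO muscle. On D4 it was 17.30, 37.38 and 34.94 TPM in WT and 29.66, 23.09 and 35.35 TPM in KO libraries. Unlike Chrng, Ache was not low in KO D4 replicate 2. From D7 on, all 12 libraries were between 16.18 and 33.08 TPM. Its course resembled that of Chrne in the low D1 values.

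Injury itself was addressed by comparing WT D1 with control muscle, with limma on log2(TPM + 1) and adjustment over 13041 genes. Chrng did not reach the minimum level there, and 7 of the other 8 genes passed. Chrne fell by 1.55 on the log2 scale (SE 0.34, adjusted p = 0.00581). Chrnd rose by 1.84 (SE 0.34, adjusted p = 0.00344) and Chrnb1 by 1.28 (SE 0.17, adjusted p = 0.00166). Dok7 rose by 1.06, Musk by 0.99, Chrna1 by 0.81 and Rapsn by 0.55 (adjusted p = 0.0187, 0.0124, 0.0287 and 0.0479), and Ache differed by -0.55 with an adjusted p of 0.0545. As the study names the opposite leg as control, both legs may come from the same mice, which the labels do not say. With the replicate number as a block Rapsn did not pass (0.55, adjusted p = 0.0737). Of all genes, 55.4% were called higher and 5.64% lower, and the median difference of all genes was 0.66, so that 6 of 8 called higher is near the background. In bulk tissue, fewer cells of a type and less RNA per cell cannot be told apart. The summed level of 8 leukocyte markers was 145 to 188 TPM in control and 826 to 3800 TPM in WT D1 libraries, and that of mature myofibre markers 202967 to 219110 TPM and 103028 to 209671 TPM. The part of this in the receptor values was not tested.

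Scaling decided much of this comparison. With median-of-ratios scaling, which set the median difference of all genes to 0.00, the calls of all genes were split into 2753 higher of 5547, against 7229 of 7965 without it. Chrne and Chrnd were still called, at -2.19 (adjusted p = 0.00658) and 1.29 (adjusted p = 0.0116), and Ache was then called lower, at -1.29 (adjusted p = 0.0082). Chrnb1, Chrna1, Musk and Dok7 stayed positive but were not called (0.52, 0.11, 0.29 and 0.33), and Rapsn turned to -0.21. Leaving out control replicate 1 or control replicate 2 left 4 and 3 genes called. The Rapsn call was lost without any single library but WT D1 replicate 2 (from 0.35 to 0.62), and the Chrna1 call without any but WT D1 replicate 3 (from 0.64 to 0.86). Dok7 was not called without control replicate 1 (1.06) or control replicate 2 (0.87), nor Musk without control replicate 2 (0.87), and Ache was called lower without WT D1 replicate 3 (-0.60, adjusted p = 0.0268).

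Between D1 and D4, receptor transcripts rose in WT muscle. Chrng rose by 5.54 on the log2 scale (SE 0.84, adjusted p = 0.000238), Chrna1 by 3.45 (SE 0.56, adjusted p = 0.00038) and Chrnd by 2.30 (SE 0.48, adjusted p = 0.00222). Ache rose by 1.02 (SE 0.25, adjusted p = 0.00791). Chrnb1 at 0.80 and Chrne at 0.74 did not pass (adjusted p = 0.0568 and 0.0765), nor did Rapsn, Dok7 and Musk. With quantile normalization Chrnb1 passed (0.67, adjusted p = 0.0391). Of all 15718 genes, 14.6% were called higher and 5.27% lower, against 4 of 9 and 0 of 9 here, with a median of 0.80 over the 9 and 0.17 over all genes. Chrng, Chrna1 and Chrnd kept their calls with both scalings and without each library in turn. The Ache call was lost with median-of-ratios scaling (0.75, adjusted p = 0.102) and with quantile normalization (0.82, adjusted p = 0.0703), where the median of all genes was -0.04. With median-of-ratios scaling 1862 of 3876 calls of all genes were higher, against 2292 of 3120. Without WT D1 replicate 3, the library of that group with the most Chrne and the least Chrng, Chrne passed (1.14, adjusted p = 0.00694), and likewise without WT D4 replicate 1 (1.05, adjusted p = 0.0193). In WT D1 replicate 3 leukocyte markers summed to 826 TPM, against 2410.5 and 3796 TPM in the other WT D1 libraries. Its mature myofibre markers summed to 208439 TPM, against 125535 and 102557 TPM there and 202967 to 219110 TPM in control libraries. The part of this in the D1 comparisons was not tested.

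Between D4 and D7 the direction turned. In WT muscle Chrng fell by 4.23 (SE 0.84, adjusted p = 0.0076), Chrna1 by 2.67 (SE 0.56, adjusted p = 0.00926), Chrnd by 2.34 (SE 0.48, adjusted p = 0.00852), Rapsn by 1.05 (SE 0.22, adjusted p = 0.00928) and Dok7 by 0.90 (SE 0.22, adjusted p = 0.0173). Chrne alone of the 9 was called higher, by 1.101 (SE 0.29, adjusted p = 0.0226). Over all genes 3.04% were called higher and 9.31% lower, with a median of -0.24. These calls leaned on single libraries: without WT D4 replicate 1 or without WT D7 replicate 3, none of the 9 passed (adjusted p from 0.0514 to 0.143 and from 0.0539 to 0.0936), and only 212 and 222 genes passed in all, against 1941. The differences themselves stayed near, at -3.83 and -3.69 for Chrng and 0.80 and 1.16 for Chrne. Without WT D7 replicate 2, Chrne (1.02, adjusted p = 0.0933) and Dok7 (-0.90, adjusted p = 0.0694) lost their calls. The Dok7 call was also lost under both scalings (-0.61 and -0.62), and with median-of-ratios scaling 973 of 1831 calls of all genes were higher, against 478 of 1941.

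From D7 to D14, Chrnb1 fell by 1.55 in WT muscle (SE 0.29, adjusted p = 0.0043), Chrna1 by 1.77 (SE 0.56, adjusted p = 0.0256) and Chrnd by 1.35 (SE 0.48, adjusted p = 0.0393). Chrng differed by -1.84 with an adjusted p of 0.093. The background was 0.923% of genes higher and 30.9% lower, with a median of -0.45, so that 3 of 9 called lower is near it. Chrnb1 remained with both scalings (-0.98 and -1.09, adjusted p = 0.0137 and 0.00992), whereas Chrna1 and Chrnd did not (adjusted p from 0.0656 to 0.123). There 813 of 2220 calls of all genes were higher with median-of-ratios scaling, against 145 of 5000. The Chrna1 call was lost without WT D7 replicate 1 (-1.39) or WT D14 replicate 3 (-1.66), and the Chrnd call without any of these or WT D7 replicate 2, WT D14 replicate 1 or WT D14 replicate 2 (from -0.95 to -1.46).

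In KO muscle, 3 of the 9 genes were called higher on D4 than on D1, where 7.18% of all genes were called higher and 12.2% lower. Ache rose by 1.67 (SE 0.25, adjusted p = 0.00038), Chrne by 1.56 (SE 0.29, adjusted p = 0.00148) and Chrng by 3.02 (SE 0.84, adjusted p = 0.0191). The Chrng call was lost without KO D1 replicate 3 (3.05), KO D4 replicate 1 (2.32) or KO D4 replicate 3 (2.21). Chrna1 at 1.501 did not pass (adjusted p = 0.0634), but passed with both scalings (1.68 and 1.76, adjusted p = 0.0117 and 0.0101), as did Rapsn (0.66 and 0.71, adjusted p = 0.0466 and 0.0263). Without scaling Rapsn was 0.47 (adjusted p = 0.131) and did not pass, nor did Musk at -0.81 (adjusted p = 0.069). Without KO D4 replicate 2, 7 genes passed: Chrng at 4.52, Chrna1 at 2.54, Ache at 1.82, Chrne at 1.42, Chrnd at 1.28, Chrnb1 at 0.83 and Rapsn at 0.73. The share of all genes called without that library is not given here, at this step or the next, so these calls lack a background. Between D4 and D7, limma called 0 of the 9 and 0% of all genes in either direction in KO muscle, with 5 of the 9 and 1555 of all genes at an unadjusted p under 0.05. Without KO D4 replicate 2, Chrng fell by 4.15, Chrna1 by 2.81, Chrnd by 2.38 and Rapsn by 0.91 (adjusted p = 0.000351, 0.000137, 0.000825 and 0.0151), and Chrne at 0.80 did not pass (adjusted p = 0.107). From D7 to D14, 0 of the 9 were called in KO muscle by limma, 1 of them at an unadjusted p under 0.05, against 0.0827% of genes higher and 0.477% lower. Chrnb1 came nearest at -1.22 (adjusted p = 0.0613), and it passed with median-of-ratios scaling (-0.99, adjusted p = 0.0293), with quantile normalization (adjusted p = 0.0286) and without KO D7 replicate 2 (-1.37, adjusted p = 0.0331). With median-of-ratios scaling 132 of 431 calls of all genes were higher at this step, against 13 of 88.

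**Figure D3:**
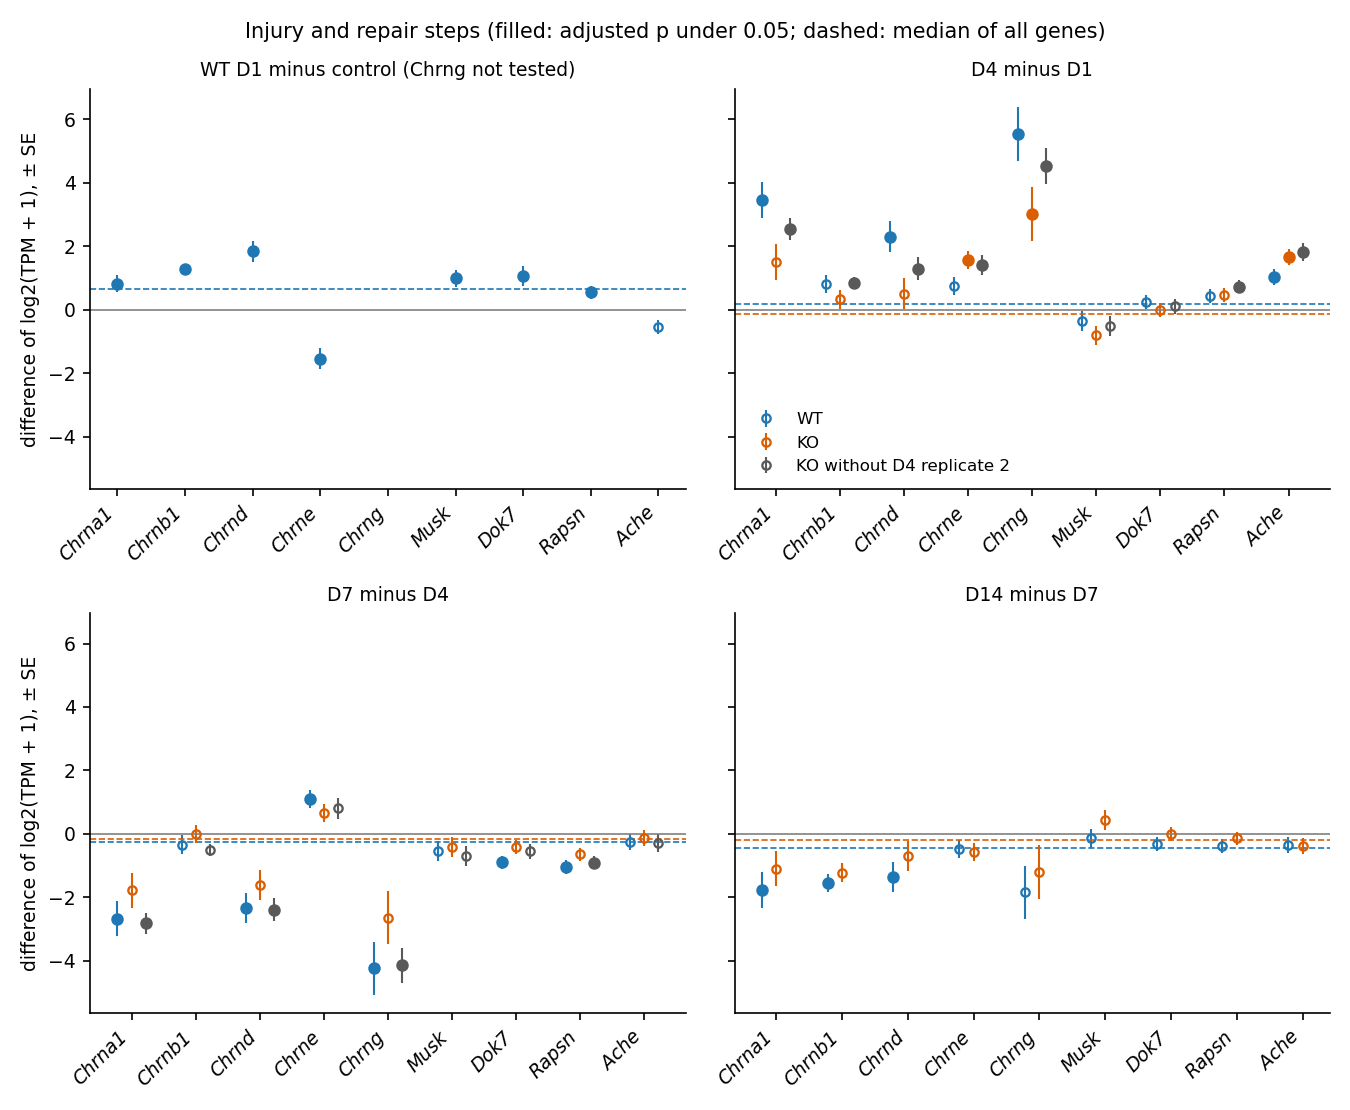
Difference of log2(TPM + 1) between WT D1 and control and between neighbouring days within a genotype, with its SE. Filled points have an adjusted p under 0.05 and dashed lines give the median of all genes. The D4 and D7 steps of KO muscle were larger for Chrng, Chrna1 and Chrnd without KO D4 replicate 2.

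KO and WT muscle were then compared on each day, the question being whether junction transcripts depend on Gsdme during repair. Limma called 0 of the 9 genes on any day. The background was 0.00636% of 15718 genes on D1, 0% on D4, D7 and D14, 0.00636% for the average of days and 0% for a difference between days. At an unadjusted p under 0.05 there were 1 of the 9 on D1, 4 on D4 and 0 on D7 and D14, against 845, 3568, 481 and 324 of all genes. On D1, Ache was -0.62 (SE 0.25, unadjusted p = 0.0259, adjusted p = 0.873), and Chrna1 was 0.48 (SE 0.56), with its 3 KO libraries, at 14.71 to 16.56 TPM, above the 3 WT libraries, at 6.90 to 13.98 TPM. Among all genes 3.33% showed such a separation in that direction.

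On D4, Chrng was -2.23 (SE 0.84), Chrna1 -1.47 (SE 0.56) and Chrnd -1.35 (SE 0.48), each with an adjusted p of 0.212, and Chrne was 0.61 (SE 0.29, adjusted p = 0.218). All KO libraries were below all WT libraries for Chrng, Chrnd, Musk and Dok7, 4 of the 9, where 11.2% of all genes separated in that way and the median of all genes was -0.28. Without KO D4 replicate 2 the differences shrank to -0.72 for Chrng (SE 0.55), -0.43 for Chrna1 (SE 0.34), -0.57 for Chrnd (SE 0.36) and 0.46 for Chrne (SE 0.32), each with an adjusted p of 0.905. Most of the D4 difference in Chrng and Chrna1 thus rested on that library. WT D4 replicate 1 stood apart in the other direction. It had the most Chrng and Chrna1 of its group, at 144 and 207 TPM. Its mature myofibre markers summed to 51333 TPM, against 103712 and 108448 TPM in the other WT D4 libraries. The part of this library in the D4 differences is not given here.

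**Figure D4:**
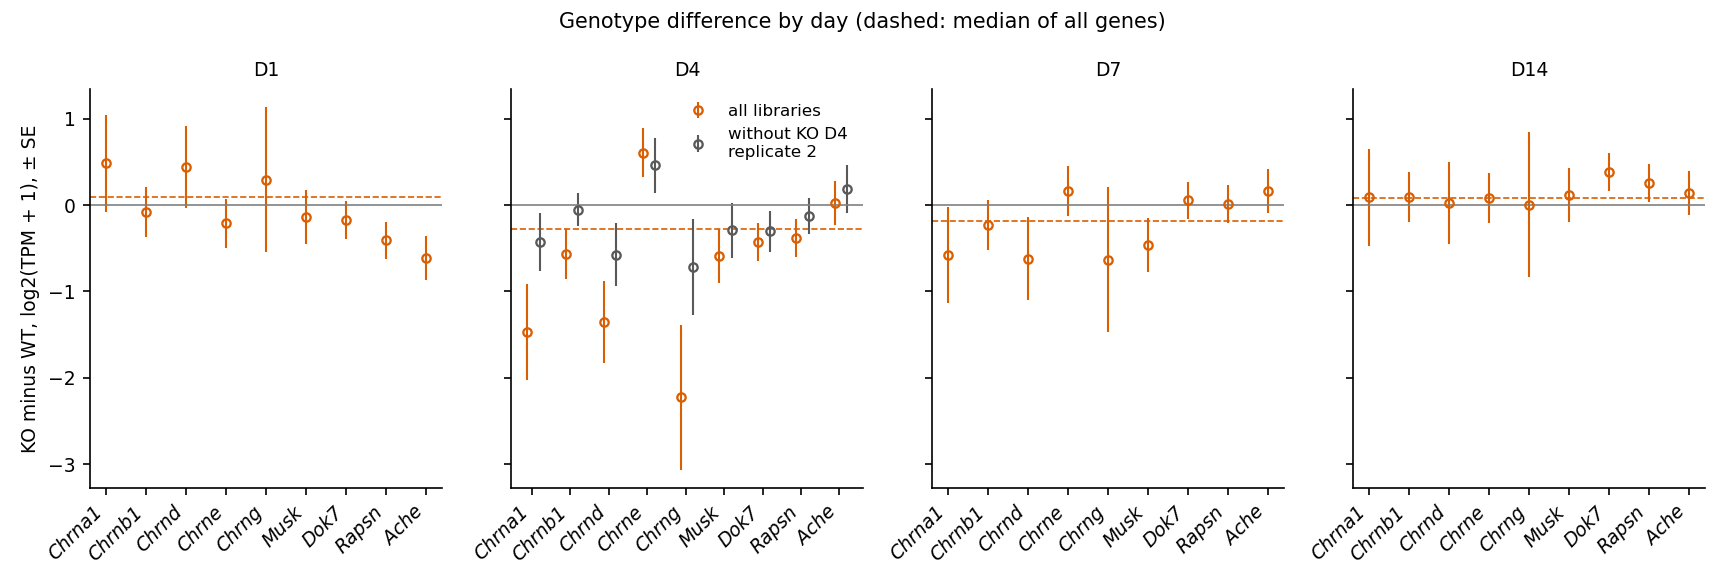
KO minus WT difference of log2(TPM + 1) on each day, with its SE, for 3 libraries per group. Dashed lines give the median of all genes. On D4 the grey points, without KO D4 replicate 2, lay nearer to 0 than the orange points for Chrng, Chrna1 and Chrnd.

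On D7 the differences ran from -0.63 for Chrng to 0.17 for Ache, and the sign of the Chrng difference rested on WT D7 replicate 1, without which it was 0.17. On D14 all 9 differences were at or above 0 and the largest was 0.38 for Dok7, with a median of 0.10 over the 9 and 0.08 over all genes. With either scaling 4 of the 9 were above 0 and 5 below it. The 3 KO libraries of Rapsn were above the 3 WT libraries that day, as were 7.37% of all genes. Averaged over days, the differences ran from -0.64 for Chrng (SE 0.42, adjusted p = 0.861) to 0.16 for Chrne, and 0 of the 9 passed or had an unadjusted p under 0.05, against 556 of all genes. The F test between days gave adjusted p values from 0.527 to 0.649 and unadjusted p values of at least 0.0746.

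KO D4 replicate 2 also stood apart in markers that are not junction genes. The sum of 8 regenerating myofibre markers was 3584 TPM there, against 7133 and 9379 TPM in the other KO D4 libraries and 7275 to 9086 TPM in WT D4 libraries, with none of the 8 at 0. Leukocyte markers summed to 414 TPM, against 3579 and 2998 TPM, and mature myofibre markers to 171647 TPM, against 83889 and 140732 TPM. Schwann cell and nerve markers summed to 1729 TPM, against 499 and 251 TPM in the other KO D4 libraries and at most 488 TPM in WT D4 libraries, and were at 0 for none of 11 genes. In uninjured control libraries the regenerating myofibre markers already summed to 1764 to 2098 TPM, with up to 4 of the 8 under 1 TPM. Their sum is therefore not a measure of regenerating fibres alone. Low Chrng in KO D4 replicate 2 came with lower sums of regenerating myofibre and leukocyte markers. It also came with higher sums of mature myofibre and nerve markers, and the part of these in the result was not tested.

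**Figure D5:**
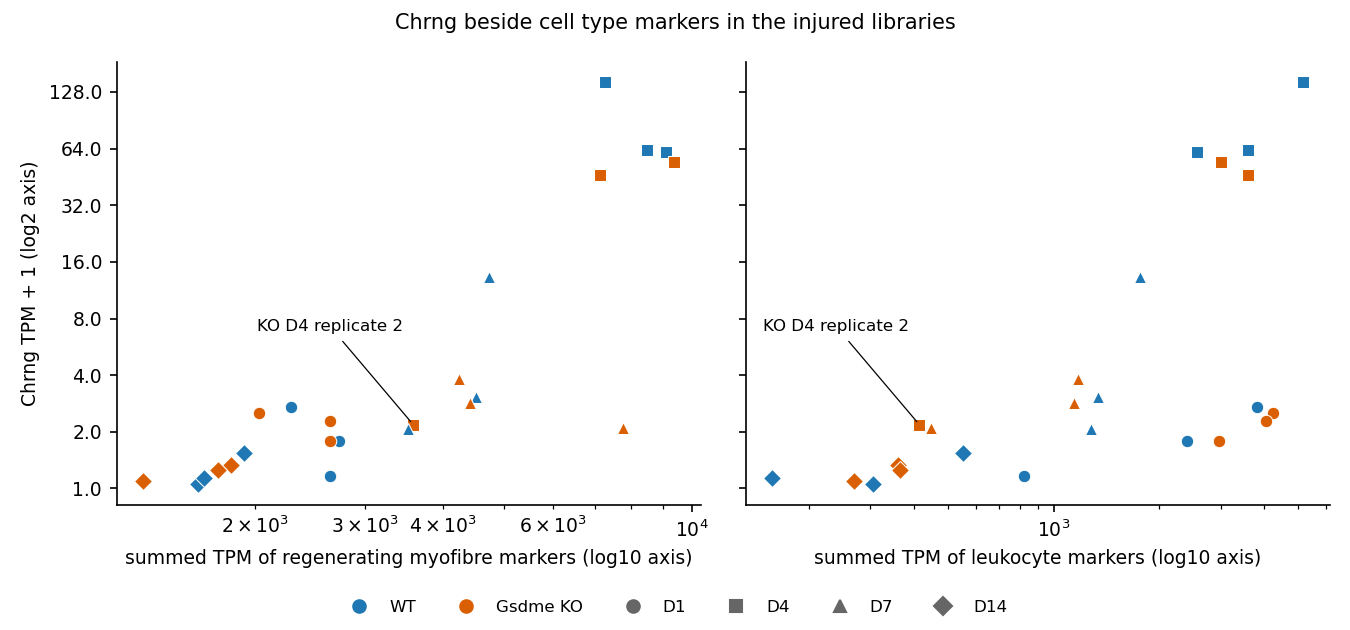
Chrng TPM + 1 (log2 axis) in the 24 injured libraries against the summed TPM of 8 regenerating myofibre markers and of 8 leukocyte markers (log10 axes). Each point is a library, with genotype by colour and day by shape. KO D4 replicate 2, at 3584 and 414 TPM, lay below the other KO D4 libraries on both axes of each panel.

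Of the 8 regenerating myofibre markers, 7 were called higher on D4 than on D1 in each genotype, against 14.6% of all genes in WT and 7.18% in KO muscle. From D4 to D7, 3 were called lower in WT muscle and 0 in KO muscle, against 9.31% and 0% of all genes. From D7 to D14, 7 were called lower in WT and 1 in KO muscle, against 30.9% and 0.477% of all genes. Of 10 nerve and Schwann cell markers tested, 1 was called higher on D4 than on D1 in each genotype, against 14.6% and 7.18% of all genes. Leukocyte markers, 8 genes, had 1 called higher in WT and 3 called lower in KO muscle at that step. Of all genes, 14.6% were called higher in WT and 12.2% lower in KO muscle. For these marker lists no fit without KO D4 replicate 2 is given here. The neuronal acetylcholine receptor subunits, 11 genes, were low, and none passed the minimum level over the 24 injured libraries. In WT D1 against control 1 of them was tested and not called (0.49). The highest value in any library was 3.57 TPM, for Chrna9.

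Other genes were described from a list of 28, here called synaptic partners, 27 of them tested in injured muscle. The list is wider than the agrin pathway and includes Ufsp1, the gene next to Ache. On D4 against D1, 13 were called higher and 1 lower in WT muscle, against 14.6% and 5.27% of all genes (median 0.59, all genes 0.17). In KO muscle 7 were called higher and 1 lower, against 7.18% and 12.2% of all genes (median 0.35, all genes -0.15). Colq, the collagen tail that anchors acetylcholinesterase, rose by 0.99 in WT and 0.80 in KO muscle (adjusted p = 0.00332 and 0.0166). Lrp4, the agrin receptor, rose by 0.64 and 0.65 (adjusted p = 0.0144 and 0.0173). In WT muscle both calls were lost under both scalings (0.73 and 0.65 for Colq, 0.42 and 0.33 for Lrp4), and in KO muscle both were lost without KO D1 replicate 3 (0.67 and 0.56), Colq also without KO D1 replicate 1 (0.67) and Lrp4 without KO D4 replicate 1 (0.45). Erbb3, a receptor for neuregulin, rose by 2.47 in WT and 1.31 in KO muscle (adjusted p = 6.54e-05 and 0.007), and Col13a1, a transmembrane collagen of the synapse, by 1.43 and 1.35 (adjusted p = 0.000672 and 0.00159). Erbb3 was 17.62, 10.07 and 11.28 TPM in WT D4 and 9.22, 2.86 and 8.16 TPM in KO D4 libraries, with replicate 2 again the lowest. Lama4, a laminin chain, rose by 1.61 in WT and Ufsp1, the gene next to Ache, by 1.24 in KO muscle.

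Agrn, the ligand that starts Musk signalling, was 6.19, 6.36 and 5.51 TPM in control muscle and 13.50, 16.63 and 9.93 TPM on D1 in WT muscle. It rose by 1.00 at this step (adjusted p = 0.00623), which was lost with both scalings (0.29 and 0.20). On D4 against D1 it did not pass in WT muscle (0.59, adjusted p = 0.0808), except without WT D1 replicate 2 (0.75, adjusted p = 0.0384). From D7 to D14 it fell by 1.19 in WT muscle (adjusted p = 0.00528), from 21.00, 19.52 and 22.34 to 9.03, 8.96 and 7.96 TPM, and was -0.72 in KO muscle (adjusted p = 0.138). At this step 16 of 27 partners were called lower in WT muscle, where 30.9% of all genes were, and 0 in KO muscle, where 0.477% of all genes were. A difference of this step between genotypes was not tested for the partners as a group. Hspg2 and Lama4, both of the basal lamina, fell by 1.14 and 1.45 in WT muscle, and Lama4 lost its call without WT D14 replicate 3 (-1.23). Between D4 and D7, Erbb3 fell by 1.85 and Dag1, the dystroglycan gene, by 0.56 in WT muscle (adjusted p = 0.00282 and 0.036), with Dag1 not called under either scaling (-0.26 and -0.19) or without any of 5 single libraries (from -0.49 to -0.65). In WT D1 against control muscle, 11 of 25 partners were called higher and 3 lower, against 55.4% and 5.64% of all genes, and their median was 0.52 against 0.66 for all genes. There Crk, Macf1 and Prkar1a rose by 1.25, 1.43 and 1.02 and Colq fell by 0.73 (adjusted p = 0.0288). The Colq call was lost without any single library of the 6 but WT D1 replicate 3 (from -0.53 to -0.74). Prkar1a was not called with median-of-ratios scaling (0.23). Limma called no partner between genotypes on any day. Of 5 glycosylation enzymes that are mutated in forms of myasthenia, 5 were called higher in WT D1 than in control muscle (median 1.24, with 55.4% of all genes called higher and a median of 0.66). All 5 were called lower on D14 than on D7 in WT muscle (median -0.79, with 30.9% of all genes called lower and a median of -0.45).

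Of 9 genes known from denervated or inactive muscle, 8 were tested. Myog, a myogenic E-box factor, was 8.82, 10.85 and 7.65 TPM in control muscle and rose by 2.40 in WT D1 muscle (adjusted p = 0.000615), as did Gadd45a by 2.06 and Runx1 by 3.18, with 6 of 8 called higher where 55.4% of all genes were. On D4, Myog was 334, 173 and 169 TPM in WT and 143, 14.33 and 146 TPM in KO libraries, so that replicate 2 was low here too. It rose by 2.03 in WT muscle (adjusted p = 0.0221), a call lost without WT D1 replicate 3 (1.87) or WT D4 replicate 1 (1.71), and fell by 3.31 from D7 to D14 (adjusted p = 0.00387), with -3.05 in KO muscle (adjusted p = 0.0232). The KO call was lost without any of the D7 and D14 libraries but KO D7 replicate 2 (from -2.87 to -3.15). Ncam1, an adhesion molecule of newly formed and denervated fibres, rose by 4.06 in WT muscle between D1 and D4 (adjusted p = 0.00083) and by 2.25 in KO muscle (adjusted p = 0.0382), a KO call that was lost without any of 5 single libraries (from 1.59 to 2.31). Hdac4 fell by 0.65 in WT muscle (adjusted p = 0.00697), and was not called without WT D1 replicate 3 (-0.48). From D4 to D7, Myod1 and Ncam1 fell by 1.95 and 2.55 in WT muscle, and neither was called without WT D4 replicate 1 (-1.61 and -2.19), WT D7 replicate 2 (-1.85 and -2.73) or WT D7 replicate 3 (-1.82 and -2.18). Ncam1 was also not called without WT D4 replicate 2 (-2.69). Runx1 fell by 2.11 from D7 to D14, not called without WT D7 replicate 1 (-1.73) or WT D14 replicate 3 (-1.90). In KO muscle between D1 and D4, Gadd45a fell by 1.22, and was not called without KO D4 replicate 2 (-0.87) or KO D1 replicate 3 (-0.89).

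The genes whose levels followed each gene most closely were ranked by Pearson's r over the 24 injured libraries, as a description. For Chrng they were Hes6, Stac2, Tas1r1, R3hdml and Ddc, at 0.983, 0.983, 0.983, 0.980 and 0.974. For Chrne they were Neu2, Ank1, Casq1, Hrc and Slc37a4, at 0.949, 0.946, 0.939, 0.938 and 0.935, of which Casq1 and Hrc encode calcium-handling proteins of the sarcoplasmic reticulum. For Ache the first was Ufsp1 at 0.928, which begins 162 bases downstream of it on the same strand (chr5:137294629-137295665), so that reads at the boundary may be shared between them. Srl, Grhpr, Tmod1 and Myorg followed at 0.919, 0.916, 0.915 and 0.914. For Musk they were Psmc2, Anxa7, Hsph1, Stt3b and Lsm14a, at 0.848, 0.847, 0.842, 0.840 and 0.839.

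Levels on D14 were set beside control muscle of the other table, without a test. WT D14 means over control means were 0.86 for Chrna1, 1.19 for Chrnb1, 1.69 for Chrnd, 0.85 for Chrne, 0.97 for Musk, 0.90 for Ache, 1.06 for Dok7 and 0.73 for Rapsn. KO D14 means were 0.92, 1.28, 1.74, 0.91, 1.02, 1.00, 1.44 and 0.88 times control in the same order. Chrng, near the floor in all of these groups, had means of 0.24 TPM in WT D14 and 0.23 TPM in KO D14 against 0.12 TPM in control muscle. The means of Chrng, Chrnd, Chrnb1 and Dok7 were thus above control in both genotypes. For Chrng and Dok7 the D14 libraries of both genotypes overlapped control. Dok7 was 7.43 to 8.68 TPM in WT D14 and 5.36 to 9.65 TPM in control libraries. The D14 libraries of Chrnd, at 1.51 to 2.18 TPM, were above its control libraries, at 0.69 to 1.33 TPM. Those of Chrnb1, from 17.50 TPM, were just above its control libraries, at up to 17.43 TPM.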

How the data were processed

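Per the labels, RNA of muscle was prepared for sequencing with a SMARTER kit. The authors deposited TPM per gene and library in 2 tables, 24 injured libraries in one and control with WT D1 libraries in the other, mapped to mm10 per the labels' processing notes. The aligner and the counting tool are not given in the sources used here, and TPM keeps no read number, so that depth is unknown and no counting interval was made. Nothing states that libraries of a group came from separate animals, and p values measure the spread between libraries.

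Values were analysed as log2(TPM + 1), which understates changes of low genes, for genes of at least 1 TPM in at least 3 libraries. Limma 3.58.1 (R 4.3.3) was fitted to group means with a variance trend, and p values were adjusted over all genes tested by Benjamini-Hochberg. Genes with an adjusted p under 0.05 are called. A share or ratio of subunits was computed per library. The fit was tested on simulated data. Replicate numbers come from the titles. Same-numbered libraries deviated together (every r above 0.1) for KO D1 with KO D4 and KO D4 with KO D7, and in no other pair of groups compared. Library weights were estimated gene by gene, since the default method did not converge. The genes, lists and tests were chosen with earlier results of these data known. All 9 genes, Agrn, Lrp4 and Colq are named throughout, with up to 3 called genes of lowest adjusted p from 2 lists per comparison, and the 5 genes most like Chrng, Chrne, Ache and Musk, leaving out predicted gene names. A gene that this rule names is not reported here. Each library was left out in turn, and other scalings, filters, pseudocounts and weights were tried.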

Additional observations from a re-analysis of the deposited data

How the results depend on the processing

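Between genotypes, 0 of the 9 genes were called in all alternatives but one. Library quality weights, which gave single libraries up to 4.92 times and down to 0.116 times the usual weight, called 2 of the 9 on D1 and 1 for the difference between days, where they called 2737 and 2588 of 15718 genes. With those weights 8 were called on D4 against D1 and 9 on D7 against D4 in WT muscle, 5 on D14 against D7 in each genotype, 7 on D4 against D1 and 9 on D7 against D4 in KO muscle, the last among 5277 genes. The number of all genes called with those weights at the other steps is not given here. Both scalings called 1 of the 9 on D14 against D7 in WT muscle and in KO muscle. They called 5 on D4 against D1 in KO muscle and 3 in WT D1 against control. Of all 15718 genes, median-of-ratios and quantile scaling called 4108 and 4204 on D4 against D1 in KO muscle. On D14 against D7 they called 2220 and 2106 of all genes in WT muscle and 431 and 415 in KO muscle. Without a filter, 1 of the 9 was called on D14 against D7 in WT muscle and 4 in WT D1 against control. With only the 2 groups compared, 5 and 3 were called on D14 against D7 in WT and KO muscle. Leaving out single libraries gave from 0 to 6 on D7 against D4 and from 1 to 3 on D14 against D7 in WT muscle, from 4 to 5 on D4 against D1 in WT and from 2 to 7 in KO muscle, from 0 to 4 on D7 against D4 and from 0 to 1 on D14 against D7 in KO muscle, and from 3 to 7 in WT D1 against control.

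The Chrng difference between genotypes on D14 was -0.0149 and -0.0403 with median-of-ratios and quantile scaling and from -0.11 to 0.17 without single libraries, and on D7 from -1.18 to 0.17. Musk on D14 against D7 in WT muscle was 0.36 and 0.47 with the scalings and from -0.42 to 0.15 without single libraries. Rapsn in WT D1 against control was -0.21 and -0.16 with the scalings and from 0.35 to 0.69 without single libraries. With 1 TPM added to each gene, the Chrng share was 7.95% in control, 9.95% in WT D14 and 9.41% in KO D14 muscle, and it was from 0.657% to 1.501%, from 0.896% to 3.09% and from 1.72% to 2.48% without single libraries. The cause of these changes was not tested.

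With the replicate number as a block, the same number of the 9 was called in every comparison of injured muscle. Among them were 3 and 0 in KO muscle on D4 against D1 and D7 against D4, where same-numbered libraries deviated together. No label pairs libraries of different days. In WT D1 against control, 6 of 8 were called in place of 7, and Rapsn (0.55, adjusted p = 0.0737) lost its call. Colq lost its call there too (adjusted p = 0.0574). Same-numbered libraries correlated from -0.40 to 0.44 over all pairs. Depth is unknown, and values near 0 such as Chrng outside D4 carry few reads.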
